A study of Mus musculus with 12 samples.

Results

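The 6 genes described here encode the myosin heavy chains of mouse limb muscle, namely Myh4, Myh1, Myh2 and Myh7 of the adult and Myh3 and Myh8 of the embryo and newborn. They were chosen by symbol from the 10187 genes of a transcriptome table of the triceps brachii, a forelimb muscle that extends the elbow, and all 6 were present. The table held 12 male C57/BL6 mice in 4 groups of 3, which were inactive wild-type (IW), active wild-type (AW), inactive myostatin-reduced (IM) and active myostatin-reduced (AM). The genotypes differed in Mstn exon 3, which loxP sites flanked in the myostatin-reduced mice, so that the Cre recombinase switched on by tamoxifen could remove it in those animals. Wild-type controls ate the same tamoxifen diet (0.025%), which between 4 and 6 months of age added up to 6 weeks. The promoter that drives the Cre was not given in the sources used here. From 6 months of age the active mice lived singly with a running wheel for 12 weeks, and wild-type and myostatin-reduced runners had been matched by how they ran.

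Myosin heavy chain is the motor of the thick filament. It binds actin, splits ATP and sets how fast a muscle fibre can shorten, so the heavy chain a fibre makes is the usual basis of its type. In adult mice IIB fibres (Myh4) are the fastest and most glycolytic, IIX (Myh1) and IIA (Myh2) fibres are fast with increasing oxidative capacity, and type I fibres (Myh7) are slow and oxidative. Myh3 and Myh8 are made in developing and regenerating fibres. Myostatin, the product of Mstn, is a secreted growth factor of the TGF-beta family that limits muscle mass.

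In genome build NCBIM37 (mm9) 5 of the genes lay in a row on the plus strand of chromosome 11 within 230.3 kb. Their order was Myh3 (66891802 to 66915793), Myh2 (66984529 to 67011019), Myh1 (67013554 to 67038078), Myh4 (67051314 to 67073948) and Myh8 (67090626 to 67122136). Myh7 lay apart, on the minus strand of chromosome 14 (55589525 to 55613471). The transcripts used to compute levels per length were 6016 to 6230 bases long, with 39 to 41 exons.

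The promoters of 4 neighbours in the row shared a stretch of sequence, which is shown because these genes include those whose levels moved in opposite directions. Within the 250 bases before the RefSeq start, the longest run of letters common to Myh2, Myh1, Myh4 and Myh8 was 14 bases, TTCTAATTATATCC. It was found, on either strand, in 4 of 32851 RefSeq promoter windows of that length (0.0122%), all of them from these genes. A run of 15 bases, TCAAATTATTTATAG, was shared by Myh1, Myh4 and Myh8 and found in 3 windows (0.0091%). Without Myh8, the run common to Myh2, Myh1 and Myh4 was longer, at 20 bases, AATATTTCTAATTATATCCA, was found in 3 windows (0.0091%) and holds the 14-base run within it. None of these runs was found in the windows of Myh3 or Myh7. Each line gives 110 bases of the plus strand, 5′ to 3′, with the 14-base and 15-base runs in capitals. The sequences come from RefSeq promoters of build GRCm38.p6 and matched NCBIM37 exactly, at chr11:66984344-66984453 for Myh2, chr11:67013384-67013493 for Myh1, chr11:67051096-67051205 for Myh4 and chr11:67090512-67090621 for Myh8.
Myh2: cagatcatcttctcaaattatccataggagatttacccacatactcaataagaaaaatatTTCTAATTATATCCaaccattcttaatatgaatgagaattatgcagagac
Myh1: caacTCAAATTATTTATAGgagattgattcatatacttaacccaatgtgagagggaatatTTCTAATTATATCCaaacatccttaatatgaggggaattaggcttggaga
Myh4: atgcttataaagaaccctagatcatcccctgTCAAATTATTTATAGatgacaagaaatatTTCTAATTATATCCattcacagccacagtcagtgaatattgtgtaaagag
Myh8: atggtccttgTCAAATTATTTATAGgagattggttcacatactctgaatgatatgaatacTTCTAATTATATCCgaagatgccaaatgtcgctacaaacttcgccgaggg
The 14-base run began 125 bases before the start of Myh2, 160 before that of Myh1, 158 before that of Myh4 and 54 before that of Myh8. Each run was picked as the longest shared by its own set of genes, and a match is a description of the letters only.

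The genes are close in coding sequence, which bears on how reads could be assigned. Aligned coding bases were 90.94% identical between Myh2 and Myh1, 90.21% between Myh1 and Myh4 and 87.95% between Myh4 and Myh8, whereas Myh7 was 76.55% to 77.8% identical to the others. Of all 65-base windows, the length of a read, 19.7% in Myh1, 19.7% in Myh2, 12.7% in Myh4, 14.5% in Myh8 and 1.29% in Myh3 were identical in another of the 6 transcripts, and none of 6166 in Myh7. With up to 2 mismatches allowed, the share was 48.0% in Myh1, 44.9% in Myh2, 34.2% in Myh4, 34.8% in Myh8, 11.9% in Myh3 and 0.86% in Myh7. The windows were also compared with Myh6, Myh13 and Myh7b, muscle heavy chains outside these 6. Myh6, the cardiac alpha heavy chain, held 17.3% of the Myh7 windows without a mismatch and 42.7% with up to 2, and at most 0.504% of those of the other genes. Myh13, the extraocular heavy chain, held 5.36% to 9.88% of the windows of the 5 neighbours with up to 2 mismatches. Reads from such windows may have been split by the counting, so the levels of all 6 genes are uncertain. The shares do not bound the error of a low gene that shares windows with a far higher one. Of the Myh4 windows, 5.73% were identical in Myh2, 6.28% in Myh8 and 0.134% in Myh3. Mean normalized read counts over all mice were 79746 for Myh4, 1774 for Myh2, 8.31 for Myh8 and 3.60 for Myh3.

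**Figure D1:**
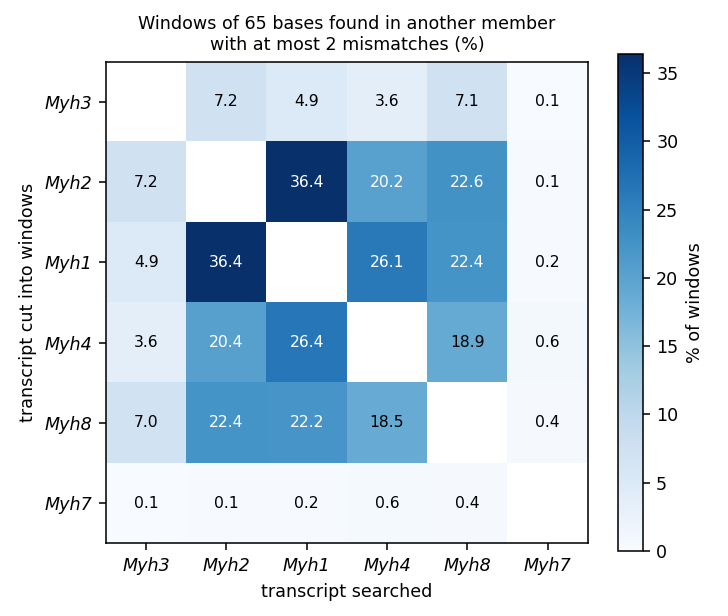
Percent of the 65-base windows of each heavy chain transcript (rows) that occur in another (columns) with at most 2 mismatches, from 0 (white) upwards (blue). Myh2 and Myh1 shared the most, and Myh7, whose row and column are nearly white, shared the fewest with the other 5.

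The values are normalized read counts that the authors scaled to an equal trimmed mean in each mouse, and they are not divided by gene length. An estimated 9023381 to 12184074 reads per mouse lay behind the table, and 3 reads were worth 0.231 to 0.316 normalized reads, which covers counting error only. As a check of the genotype labels, Mstn in normalized reads was 79.7, 138 and 131 (IW), 110, 90.1 and 80.8 (AW), 18.3, 17.2 and 21.6 (IM) and 16.1, 8.70 and 13.5 (AM), so every myostatin-reduced mouse lay below every wild-type mouse. Adult muscle was also present by its markers, since Acta1, Ckm, Tnnt3 and Des, the 4 genes of a skeletal muscle list that are not heavy chains, summed to 69123 to 97686 normalized reads. In bulk muscle, fewer fibres of a type and less RNA per fibre cannot be told apart.

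Heavy chain messages made up 7.56% to 10.3% of all normalized reads of a mouse, and Myh4 was the gene with the highest value in every mouse. Summed over the 6 genes, the value averaged 92975 ± 7375 for IW, 76386 ± 7868 for AW, 108730 ± 1181 for IM and 80813 ± 8395 for AM (SD, n = 3). Per kilobase of transcript, Myh4 was above Myh1 and Myh1 above Myh2 in all 12 mice. The ranges of these levels were 8978 to 17752 normalized reads per kb for Myh4, 284 to 2417 for Myh1 and 14.8 to 806 for Myh2. Below them the order varied. Myh7 (0.207 to 80.0 per kb) was above Myh8 (1.02 to 1.72 per kb), and Myh8 above Myh3 (0.302 to 0.929 per kb), in 8 mice. In 3 mice Myh7 was the lowest of all, and in 1 it lay between Myh8 and Myh3.

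**Figure D2:**
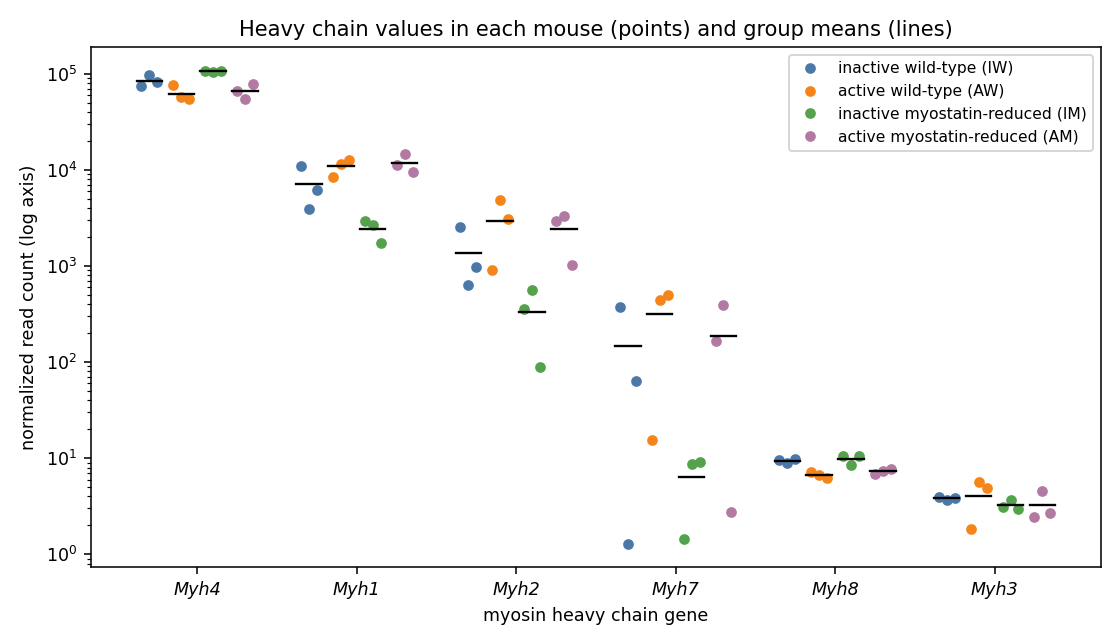
Normalized read count (log axis) of each heavy chain gene in the 12 mice, with points for mice, colours for the 4 groups and black lines for group means. Myh4 spans 54013 to 106795 and lies above all others, Myh7 spreads from 1.29 to 498, and Myh8 and Myh3 stay between 1.82 and 10.6.

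Myh4, the IIB heavy chain, is given first, since its message was the most abundant. Myh4 was 73727, 96845 and 82555 normalized reads in IW mice 1, 2 and 3, and 75908, 56811 and 54013 in AW mice. The IM mice had 106795, 104829 and 106207, and the AM mice 66296, 54103 and 78856. The IM mice were the highest and lay within 2% of each other, every AM mouse was below every IM mouse, and IW and AW mice overlapped through AW mouse 1. Averaged over genotypes, Myh4 was lower in active mice by 32.4% of the mean, which was a log2 change of −0.57 (SE 0.128, limma adjusted p = 0.0127).

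Myh1, the IIX heavy chain, ran the other way. The IW mice had 11089, 3920 and 6200 normalized reads, the AW mice 8406, 11562 and 12563, the IM mice 2929, 2643 and 1727, and the AM mice 11194, 14698 and 9430. The 3 IM mice were the lowest of all 12, and IW mouse 1 was as high as the active mice. Active mice averaged 2.38 times the inactive mean, with a log2 change of 1.51 (SE 0.227, limma adjusted p = 0.0019).

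Myh2, the IIA heavy chain, moved with Myh1 at a lower level. Its normalized reads were 2515, 627 and 968 (IW), 899, 4900 and 3102 (AW), 354, 557 and 89.9 (IM) and 2932, 3323 and 1015 (AM). Every AM mouse was above every IM mouse, while AW mouse 1, AM mouse 3 and IW mouse 1 each fell among the mice of the other activity. The active mean was 3.16 times the inactive mean, with a log2 change of 2.04 (SE 0.537, limma adjusted p = 0.0251). That call was lost when any of 6 mice was left out (IW 2, IW 3, AW 2, AW 3, IM 3 or AM 2), with an adjusted p of up to 0.0689 and a log2 change of at least 1.66, and in a robust fit with no trend (0.0701).

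Myh7, the slow heavy chain, was the most variable. Its normalized reads were 375.5, 1.29 and 63.1 (IW), 15.6, 447 and 498 (AW), 1.43, 8.68 and 9.02 (IM) and 164, 393 and 2.73 (AM). The 3 IM mice were all under 10, but IW mouse 2 and AM mouse 3 were as low, so neither running nor genotype separated the groups at either level of the other factor. The active mean was 3.31 times the inactive mean, and the log2 change of 2.68 had a 95% interval from −0.32 to 5.68 and was not called (limma adjusted p = 0.211). Without IW mouse 2 the change was 1.67. The interval allows no change and also allows a change larger than that of Myh2.

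Of the 4 adult genes, 3 were called for activity, Myh1 and Myh2 higher and Myh4 lower, where 14.5% of the 7247 genes tested were called. Within-group spread differed widely among them. The within-group SD on the log2 scale was 0.214 for Myh4, 0.481 for Myh1, 1.16 for Myh2 and 3.00 for Myh7, which was the highest of all genes tested, against a median of 0.122.

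**Figure D3:**
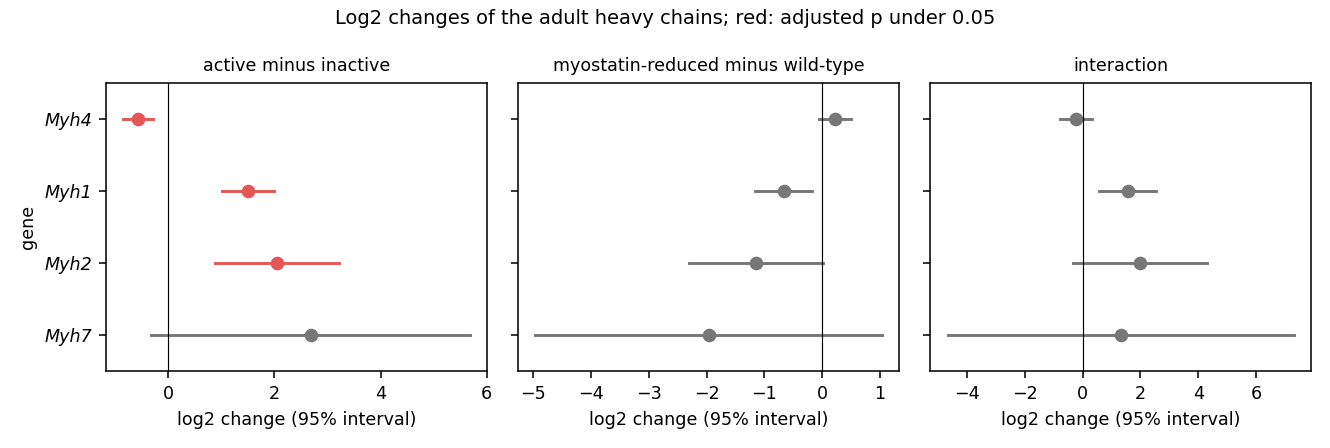
Log2 change of each adult heavy chain (points) with its 95% interval (lines) for activity, genotype and their interaction, on a separate horizontal scale in each panel. Red marks an adjusted p under 0.05, reached by Myh4, Myh1 and Myh2 for activity alone.

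Activity was then compared within each genotype. In wild-type mice (AW-IW) none of the 4 was called, where 2 of 7247 genes (0.0276%) were called and 1067 had an unadjusted p under 0.05. Myh1 differed by 0.73 on the log2 scale (95% interval 0.03 to 1.42, limma adjusted p = 0.315). Myh4 differed by −0.45 (95% interval −0.84 to −0.05, adjusted p = 0.269), Myh2 by 1.05 (−0.59 to 2.70, adjusted p = 0.569) and Myh7 by 2.02 (−2.22 to 6.26, adjusted p = 0.684). Most of these values leaned on single mice. The Myh1 difference was 1.12 without IW mouse 1 and 0.37 without IW mouse 2. That of Myh2 was 1.62 and 0.62 without those same mice, 1.76 without AW mouse 1 and 0.54 without AW mouse 2. That of Myh7 was 3.67 without IW mouse 1, 3.63 without AW mouse 1, 1.26 without AW mouse 2, 1.18 without AW mouse 3 and −0.01 without IW mouse 2.

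In myostatin-reduced mice (AM-IM) 3 of 4 were called, where 7.84% of genes were. Myh1 was 4.84 times as high in AM as in IM mice, with a log2 change of 2.29 (SE 0.322, limma adjusted p = 0.00813). Myh2 was 7.26 times as high (log2 change 3.03, SE 0.759, adjusted p = 0.0318), and Myh4 was lower by 37.3% of the mean (log2 change −0.69, SE 0.181, adjusted p = 0.0368). Myh7 changed by 3.34 with a 95% interval from −0.90 to 7.58 (adjusted p = 0.302), and by 2.01 without AM mouse 2 and 5.37 without AM mouse 3. The 3 called genes did not overlap between AM and IM mice, which held for 29.8% of genes tested.

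Of the 3 calls in AM-IM, that of Myh1 held whichever mouse was left out (adjusted p 0.00269 to 0.0479). Myh2 was lost without IM mouse 1, IM mouse 3 or AM mouse 2 (adjusted p up to 0.137), and Myh4 without any of 6 mice (IW 3, AW 2, IM 1, IM 2, IM 3 or AM 2, up to 0.162). Myh2 was also lost in the robust fit (0.0806), and Myh4 with no filter on low values (0.0774). The labels do not say that replicate numbers pair mice, but mice with the same number in IM and AM deviated together. That pair of groups was picked from these same data, so its block fit is a description only. With the number as a block the limma adjusted p of Myh4 was 0.0595 over all mice and 0.0246 when only IM and AM mice were fitted. Myh1 and Myh2 were called in both of these fits (adjusted p 0.0158 and 0.0305 over all mice).

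The effect of genotype was tested in the same way. Averaged over activity, none of the 4 was called, where 5.78% of genes were. The log2 change was 0.22 for Myh4 (95% interval −0.06 to 0.49, limma adjusted p = 0.352) and −0.66 for Myh1 (−1.16 to −0.17, adjusted p = 0.11). It was −1.15 for Myh2 (−2.31 to 0.02, adjusted p = 0.231) and −1.97 for Myh7 (−4.97 to 1.03, adjusted p = 0.433). The Myh7 value moved to −0.95 without AM mouse 3, −1.14 without IW mouse 1 and −2.98 without IW mouse 2. Without IW mouse 2, Myh1 was called, at −0.84 (adjusted p = 0.0321).

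Among inactive mice (IM-IW) 1 of 4 was called, where 2.51% of genes were. Myh1 in IM mice was 0.344 times its IW mean, a log2 change of −1.44 (SE 0.322, limma adjusted p = 0.0399). The call was lost when any of 7 mice was left out (IW 1, IW 3, AW 2, AW 3, IM 1, IM 2 or IM 3), with an adjusted p of up to 0.164. It was also lost under quantile normalization (adjusted p = 0.0596) and in a robust fit with no trend (0.0626). A fit with the replicate number as a block over all mice (0.057) and a fit of IW and IM mice alone lost it too. Myh2 differed by −2.14 (95% interval −3.78 to −0.49, adjusted p = 0.16), Myh4 by 0.34 (−0.06 to 0.73, adjusted p = 0.363) and Myh7 by −2.62 (−6.86 to 1.62, adjusted p = 0.53). The Myh2 difference was −1.37 without IM mouse 3, and that of Myh7 was −0.97 without IW mouse 1 and −4.65 without IW mouse 2. Every IM mouse was below every IW mouse for Myh1 and Myh2 and above every IW mouse for Myh4, and 25.8% of genes tested did not overlap in this comparison. AM-IM and IM-IW share the IM mice, so their opposite signs are not independent of each other.

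Among active mice (AM-AW) none of the 4 was called, where 15 of 7247 genes (0.207%) were and 894 had an unadjusted p under 0.05. The log2 change was 0.12 for Myh1 (95% interval −0.58 to 0.81) and 0.09 for Myh4 (−0.30 to 0.49), with limma adjusted p of 0.911 and 0.868. For Myh2 it was −0.16 (−1.80 to 1.49, adjusted p = 0.946) and for Myh7 −1.31 (−5.55 to 2.93, adjusted p = 0.83). None of these 4 signs was stable to leaving out an active mouse. Myh1 turned negative without AW mouse 1 or AM mouse 2 (both −0.06), and Myh4 without AM mouse 3 (−0.04) or, barely, AW mouse 3. Myh2 turned positive without AW mouse 2 (0.36), AW mouse 3 (0.03) or AM mouse 3 (0.38), and Myh7 without AM mouse 3 (0.72). The lowest values were −0.86 for Myh2 and −2.92 for Myh7, both without AW mouse 1. The groups overlapped for all 6 genes, where 14.2% of the genes of the whole table did not overlap.

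Whether the response to running depended on genotype was tested as an interaction, and none of the 4 was called by limma. No gene of the 7247 was called (0%), and 297 had an unadjusted p under 0.05. For Myh1 the change with activity was larger in myostatin-reduced mice by 1.56 on the log2 scale (95% interval 0.57 to 2.55), with an unadjusted p of 0.00472 and a limma adjusted p of 0.89. The interaction was 1.98 for Myh2 (−0.35 to 4.31), −0.24 for Myh4 (−0.80 to 0.31) and 1.31 for Myh7 (−4.68 to 7.31), with adjusted p of 0.89, 0.908 and 0.956. These values leaned on single mice. The Myh2 interaction was 1.22 without IM mouse 3 and 1.28 without AW mouse 1. Over all alternatives run, of the processing and of leaving out a mouse, it lay between 1.14 and 2.53. That of Myh4 was −0.15 without IW mouse 1, −0.09 without AW mouse 1, −0.10 without AM mouse 2 and −0.38 without AM mouse 3. That of Myh7 turned negative without IW mouse 1, AW mouse 1 or AM mouse 2 and rose to at most 3.35 without another.

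Shares of the summed heavy chain value showed the same shift as a composition. They are given with no test, because shares of a single total are not independent. Myh4 held 90.5% ± 5.86 of the sum for IW, 81.0% ± 6.96 for AW, 97.4% ± 0.742 for IM and 81.7% ± 6.86 for AM (SD, n = 3). Myh1 held 7.80% ± 4.46, 14.5% ± 4.15, 2.24% ± 0.562 and 14.9% ± 4.93 in the same order of groups. Myh2 held 1.52% ± 1.19, 4.04% ± 2.81, 0.307% ± 0.216 and 3.12% ± 1.78. These small shares leaned on single mice, since the Myh2 share was 0.848% for IW without IW mouse 1 and 0.202% for IM without IM mouse 2. Active and inactive mice thus differed by −12.6 percentage points in the Myh4 share and by 9.67 in the Myh1 share.

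For each of the 4 adult genes, the SD of the shares among IW, AW and AM mice was several times that among IM mice. An SD is also smaller where the share itself is small. As a ratio, the highest Myh2 share was 6.20 times the lowest in IM mice, against 4.64 in IW, 6.30 in AW and 4.03 in AM mice. For Myh1, Myh4 and Myh7 this ratio was lowest in IM mice. Across all mice the Myh4 share ran from 74.6% to 98.3%. Myh7 held at most 0.71% of the sum, Myh8 at most 0.011% and Myh3 at most 0.00759%. Reads of Myh4 per read of Myh1 numbered 36.5, 39.7 and 61.5 in IM mice and 6.65, 24.7 and 13.3 in IW mice. In active mice this ratio lay between 3.68 and 9.03 for both genotypes.

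**Figure D4:**
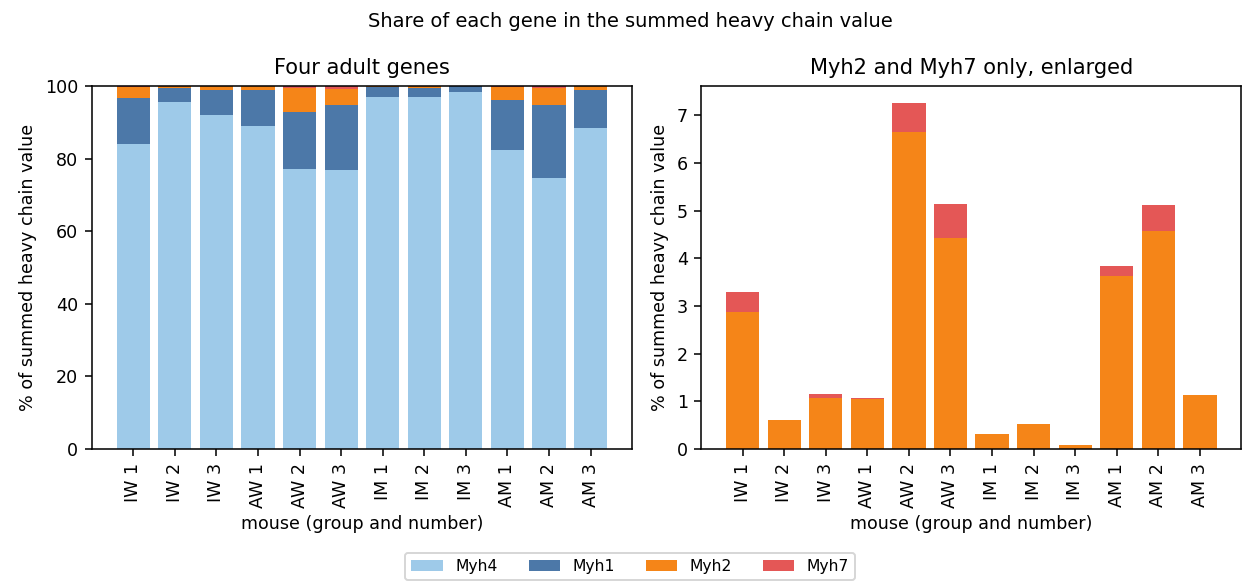
Percent of the summed heavy chain value held by each adult gene in each mouse, as stacked bars for the 4 adult genes (left) and for Myh2 and Myh7 alone on an enlarged axis (right). The 3 IM bars are almost wholly Myh4, IW mouse 1 has a larger Myh1 part than the other IW mice, and AW mouse 1 and AM mouse 3 have the largest Myh4 parts among the active mice.

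The adult genes varied together from mouse to mouse. On the log2 scale over 12 mice, Pearson's r was 0.931 between Myh1 and Myh2 (Spearman's rho 0.965), −0.924 between Myh1 and Myh4 (rho −0.965) and −0.895 between Myh2 and Myh4 (rho −0.944). With Myh7, r was 0.738 for Myh1 (rho 0.797), 0.79 for Myh2 (rho 0.818) and −0.853 for Myh4 (rho −0.867). Over these 6 pairs the adjusted permutation p was at most 0.0083 for r and 0.00271 for rho, and 1e-05 was the smallest unadjusted p the resamples could give. The resamples shuffled all 12 mice across groups, so these p-values also take in the differences between group means. Without the 2 mice farthest from the median of the first gene, r stayed between 0.791 and 0.934 in size.

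The relations did not rest on the group means alone. For deviations from group means, r was 0.836 for Myh1 and Myh2, −0.765 for Myh1 and Myh4 and −0.928 for Myh4 and Myh7, and the other 3 pairs lay between 0.704 and 0.742 in size. Within the 6 active mice r kept its sign for each pair, between 0.819 and 0.950 in size, and within the 6 inactive mice it was between 0.639 and 0.958. All these genes were measured in the same libraries and share their scaling.

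**Figure D5:**
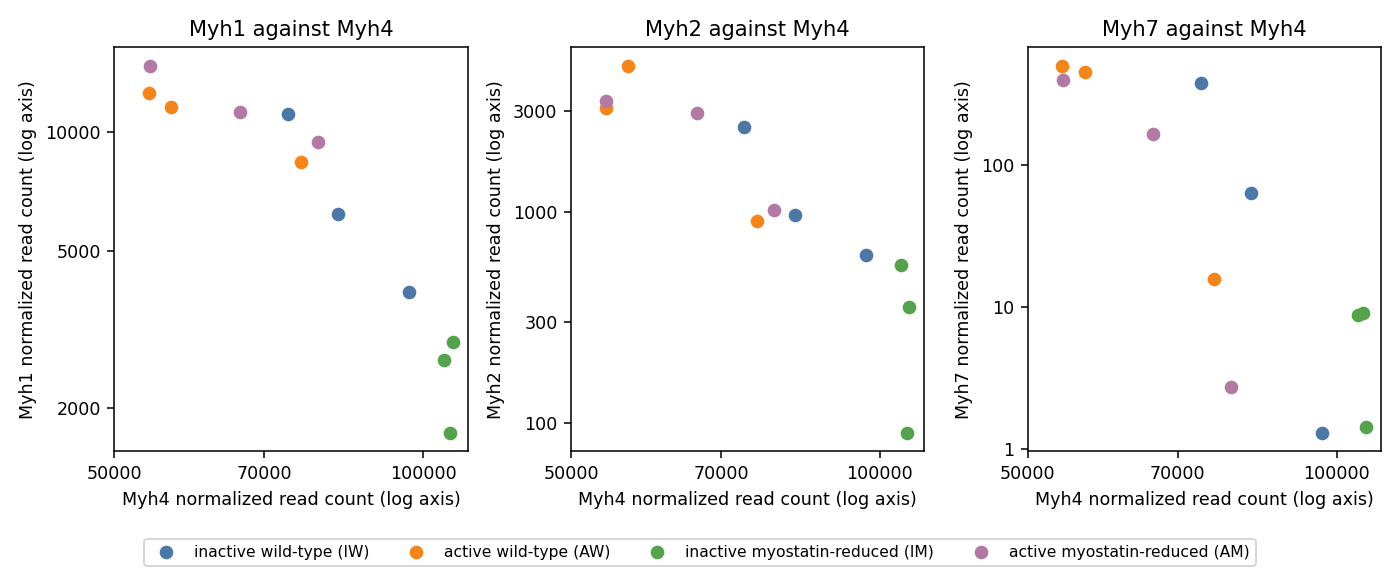
Normalized read count of Myh1, Myh2 and Myh7 against that of Myh4 in the 12 mice, both axes log, coloured by group. In each panel the mice fall from upper left to lower right, with IM mice at the lower right and most active mice at the upper left.

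The developmental genes were near the bottom of the range and failed the filter on low values, a mean of at least 10 normalized reads. Myh8, the perinatal heavy chain, averaged 8.31 normalized reads, just below it. Mice had 9.62, 8.86 and 9.76 (IW), 7.18, 6.69 and 6.27 (AW), 10.4, 8.46 and 10.6 (IM) and 6.80, 7.32 and 7.77 (AM). Every active mouse was below every inactive mouse, which in a table of 10187 genes without the filter held for 0.972% of genes in this direction.

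With no filter, Myh8 fell with activity by 0.41 on the log2 scale (SE 0.0789, limma adjusted p = 0.00707), where 10.7% of genes were called, and it was called in all 12 fits that left out a mouse. Per 10000 reads of Myh4, Myh8 had 0.807 to 1.35 in all mice. Of the Myh8 windows, 18.5% matched Myh4 with at most 2 mismatches, and the part of shared reads in the fall of Myh8 was not tested. With genotype Myh8 differed by 0.08 (95% interval −0.09 to 0.25, adjusted p = 0.645), where 4.22% of all genes were called with no filter.

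Myh3, the embryonic heavy chain, averaged 3.60 normalized reads. Mice had 3.95, 3.69 and 3.86 (IW), 1.82, 5.60 and 4.84 (AW), 3.14, 3.64 and 2.94 (IM) and 2.44, 4.54 and 2.69 (AM). Active and inactive mice overlapped, with a log2 difference of −0.03 (95% interval −0.44 to 0.39, limma adjusted p = 0.944). The IM mice were all below the IW mice by a small margin (log2 difference −0.19, adjusted p = 0.789), where 23.6% of genes without the filter did not overlap.

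Partner genes that work beside each heavy chain were read from lists, with the median log2 change over all genes at −0.02 for activity and 0.00 for genotype. Each count of calls is to be read against the 14.5% of all genes called for activity and the 5.78% called for genotype. Of 9 slow-fibre partners tested, 9 had a positive log2 change with activity, with a median of 1.80, but only Casq2, the calcium store protein of slow and cardiac muscle, was called (1.34, limma adjusted p = 0.00306), which is near the 14.5% of all genes. Like Myh7, the slow troponins Tnnt1, Tnnc1 and Tnni1 had wide intervals (for example 0.08 to 4.44 for Tnnt1). None of the 9 was called for genotype, and their median was −1.30.

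Of 10 fast-fibre partners, 10 had a negative log2 change with activity, with a median of −0.27, and 4 of them were called, against 14.5% of all genes. The largest of these changes were in Actn3, the Z-disc crosslinker of fast fibres (−0.49, limma adjusted p = 0.0186), Mybpc2, the fast myosin binding protein C (−0.45, adjusted p = 0.0167), and Casq1, the fast calcium store protein (−0.36, adjusted p = 0.0384). Actn3 and Mybpc2 were also the 2 of 10 called for genotype (5.78% of all genes), higher in myostatin-reduced mice by 0.47 (adjusted p = 0.0392) and 0.41 (adjusted p = 0.0452), and the median of the list was 0.17.

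Among 11 thick-filament and folding partners, 2 were called higher and 2 lower with activity, where 14.5% of all genes were called. Myom3, an M-band protein, was higher by 1.79 (limma adjusted p = 0.0173) and Mybpc1, the slow myosin binding protein C, by 0.67 (adjusted p = 0.0313). Myom2, the M-band protein of fast fibres, was lower (−0.29, adjusted p = 0.0127). With genotype 3 of 11 were called, against 5.78% of all genes, all higher, among them Mybph, a myosin binding protein, by 1.23 (adjusted p = 0.0434). The median was −0.14 for activity and 0.06 for genotype.

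Of 19 regulators of heavy chain genes tested, 3 were called with activity, all lower, a share near the 14.5% of all genes. These were Sox6, a repressor of slow-fibre genes (−0.38, limma adjusted p = 0.0261), Nfatc3, a calcineurin-dependent factor (−0.27, adjusted p = 0.0258), and Tbx15, a T-box factor of glycolytic fibres (−0.19, adjusted p = 0.034). With genotype 3 of 19 were called, where 5.78% of all genes were. Tbx15 was higher (0.26, adjusted p = 0.0175). Rcan1, an inhibitor of calcineurin, was lower (−0.55, adjusted p = 0.000762), as was Tead1, a factor that binds muscle promoters (−0.33, adjusted p = 0.0317). The median was −0.19 for activity and 0.03 for genotype.

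Of 5 developmental and regeneration genes tested, 1 was called with each factor, and 1 of 5 cannot be set apart from the 14.5% and 5.78% of all genes. Chrna1, the acetylcholine receptor subunit, was higher with activity (0.51, limma adjusted p = 0.0126). Actc1, the cardiac actin that developing skeletal fibres also make, was higher in myostatin-reduced mice (2.43, adjusted p = 0.000941), at 36.1 ± 30.4, 36.2 ± 12.6, 193 ± 44.7 and 166 ± 20.1 normalized reads in IW, AW, IM and AM mice (SD, n = 3). Myh3 and Myh8 were not called for genotype beside it, and the median of the list was −0.08 for activity and 0.18 for genotype. Of 4 other myosin heavy chains tested, none was called with activity by limma and 1 of them with genotype, the nonmuscle Myh14 (0.33, adjusted p = 0.0133), with medians of 0.12 and 0.10.

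The genes whose level was most like each adult heavy chain over the 12 mice were found among 7243 tested genes, by Pearson's r of log2 values and as a description only. For Myh1 they were Echs1, a fatty acid oxidation enzyme (r = 0.976), Atp5a1, a subunit of the mitochondrial ATP synthase (0.975), and Acaa2, a thiolase of fatty acid oxidation (0.975). For Myh2 they were Ankrd2, a stretch-responsive muscle protein (0.979), Rcan2 (0.974) and Fhl1, a LIM-domain muscle protein (0.972). Myh4 was nearest to Man2a2, a Golgi mannosidase (0.986), Camk2a, a calcium-dependent kinase (0.976), and Dusp3, a phosphatase (0.975). Myh7 was nearest to the slow troponins Tnnc1 (0.991), Tnni1 (0.990) and Tnnt1 (0.989).

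Markers of other cells were checked beside these results. Of 4 endothelial markers, 3 were called higher with activity (Pecam1, Kdr and Tek, with a list median of 0.48), where 14.5% of all genes were called. The summed value of the 4 markers was 209 to 264 normalized reads in IW, 209 to 360 in AW, 180 to 189 in IM and 232 to 390 in AM mice. In AM-IM the same 3 were called, where 7.84% of all genes were, with a list median of 0.69. Of 4 smooth muscle markers, Smtn was called higher with genotype (0.28, limma adjusted p = 0.0483), where 5.78% of all genes were called. The summed value of these 4 markers was 108 to 158 normalized reads for IW, 99.7 to 142 for AW, 108 to 147 for IM and 133 to 201 for AM. In AM-IM all 4 had a positive log2 change, with a median of 0.61, and their median interaction was 0.98, with none called in either. The 2 Schwann cell markers tested were not called, with a median of 0.71 in AM-IM and of 1.40 for the interaction. The sum of the 3 Schwann markers in the table was 29.2 to 59.1 for IW, 16.8 to 31.9 for AW, 23.5 to 39.1 for IM and 29.1 to 58.9 for AM. The part of these markers in the heavy chain changes was not tested.

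Other marker lists were low or not called. Of 5 cardiac markers 1 was in the table, Myh6, at 0.92 to 6.38 normalized reads. Fibroblast markers were not called for either factor (0 of 4), nor was the 1 immune cell marker tested. Adipocyte markers summed to 5.63 to 23.0 normalized reads and the 1 blood marker in the table to 2.11 to 7.19, and none of these passed the filter on low values.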

How the data were processed

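Single-end 65-base reads of polyadenylated triceps RNA were mapped by the authors to mm9 with CASAVA, counted in RefSeq exons and summed to genes. Values are deposited as a signal in normalized read counts, which the authors scaled to an equal trimmed mean (without the highest and lowest 5th percentiles); whether strand was used was not given in the sources used here. Low values rose in steps worth 0.077 to 0.105 per read, but 61.8% to 63.9% of values from 50 to 200 were whole multiples (tolerance 0.0055), so whole reads were not recovered and no count model was run.

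Genes with a mean of at least 10 (7247 of 10187) entered limma 3.58.1 (R 4.3.3) as log2(value + 1), which understates changes of low genes. A model with a mean per group was fitted to all 12 mice with a trended eBayes, and two-sided p-values were Benjamini-Hochberg adjusted over all genes tested and called under 0.05. Each mouse is a separate animal. Replicate numbers come from the titles. Deviations of same-numbered mice from their group means correlated at over 0.1 in all 3 pairs only between IM and AM (0.171 to 0.322), which were therefore also fitted with the number as a block. Correlations used 100000 permutations.

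Gene positions, exons and transcripts are from GENCODE on NCBIM37, and promoters from RefSeq. The script was tested on simulated data. Members and lists were chosen with earlier results of these data known. Named genes were the members, Mstn, the 3 genes most like each member, and up to 3 called genes per list and factor, with Myh6 as the cardiac marker in the table and 3 called endothelial markers added after their values were seen.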

Additional observations from a re-analysis of the deposited data

How the results depend on the processing

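Over the alternatives run (pseudocounts of 0.1 and 4, no filter, a mean of at least 50, median-ratio scaling, quantile normalization, sample weights, a robust fit with no trend, the replicate block and leaving out each mouse), Myh1 stayed called for activity (log2 change 1.33 to 1.70). The activity count was 2 to 3 when a mouse was left out, and 4 with no filter, since Myh8 was then tested. Myh2 lost its activity call in the robust fit with no trend (2.04, adjusted p = 0.0701) and ranged from 1.66 to 2.40 without a mouse. Quantile normalization set Myh4, the gene with the highest value in each mouse, to a single value by construction, with a log2 change of 0.0. The AM-IM count was 1 to 3 without a mouse, and 2 of the calls held with no filter, where Myh4 was lost (adjusted p = 0.0774), in the robust fit, where Myh2 was lost (adjusted p = 0.0806), under quantile normalization and in a fit of IM and AM mice alone. The IM-IW count fell to 0 under quantile normalization, the robust fit, the replicate block and a fit of the 2 groups alone, and was 0 to 1 without a mouse. The genotype count was 0 to 1 without a mouse, and the Myh1 genotype change was −0.84 to −0.47. The Myh7 interaction ran from −0.34 to 3.35 without a mouse and turned negative without IW mouse 1 (−0.34), AW mouse 1 (−0.30) or AM mouse 2 (−0.01). The causes were not tested. No group mean share of an adult gene moved by more than its SD per transcript length or with adult genes alone in the sum. Leaving out 1 mouse moved 4 shares by over 1.5 times, namely Myh2 in IW from 1.52% to 0.848% and Myh7 in IW from 0.167% to 0.0358% (both without IW mouse 1), Myh2 in IM from 0.307% to 0.202% (without IM mouse 2) and Myh7 in AM from 0.249% to 0.104% (without AM mouse 2).

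With the replicate number as a block over all mice, 1082 genes were called for activity, 364 for genotype, 628 in AM-IM and 98 in IM-IW, against 1051, 419, 568 and 182 without it. The IM-IW call of Myh1 (adjusted p = 0.057) and the AM-IM call of Myh4 were lost, and no other call of the 4 adult genes changed. The block of IM and AM mice alone, added after seeing the data, called 1082 genes and 3 heavy chains. Depth limits Myh3, whose value was worth about 21 to 61 reads a mouse by the step per read. The part of reads shared with higher heavy chains in it was not tested.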
